A study of Mus musculus with 2 samples.

Results

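This account concerns 10 genes used by developing T cells, Dntt, Rag2, Ptcra, Arpp21, Themis, Cd4, Cd8a, Cd8b1, Lef1 and Tcf7, out of 32287 features counted, and their expression in T cells of the infarcted mouse heart. The mice were p16-2A-CreER;R26-mTmG, in which the p16 promoter drives a tamoxifen-activated Cre recombinase and recombined cells turn on membrane GFP. All animals underwent myocardial infarction (MI), received tamoxifen by oral gavage on day 5, and gave cells of the infarct zone on day 7. Cardiomyocytes were depleted, and the remaining cells were sorted into a GFPhi and a GFPlo fraction, which other label fields call GFP-positive and GFP-negative. Each fraction is 1 library, with no replicate and no uninjured heart, and the sources used here do not say how many mice were pooled. No test between the fractions was therefore possible. Intervals in brackets are exact 95% intervals that cover counting error only.

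A T cell was a cell with at least 300 genes, at least 500 unique molecular identifiers (UMIs, each a counted transcript), at most 20% mitochondrial UMIs, and at least 2 of the 5 genes Cd3d, Cd3e, Cd3g, Trbc1 and Trbc2 (the CD3 chains and the constant regions of the T cell receptor beta chain). In GFPhi 107 of 10125 kept cells met the rule, or 1.06% (0.867 to 1.28), and in GFPlo 650 of 11959, or 5.44% (5.04 to 5.86), which makes 757 of 22084 cells in all. Just outside the threshold, with 1 of the 5 genes, were 134 cells in GFPhi and 526 in GFPlo. Just inside it, with 2, were 13 and 91 cells. Cd3e was found in 74.8% of the GFPhi and 70.0% of the GFPlo T cells and Trbc2 in 91.6% and 92.9%, and the full list of 12 T cell genes was detected in both libraries. The 10 genes were picked with earlier results of these data in view, so their levels in T cells against other cells are a description.

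T cells mature in the thymus through a fixed order of stages. Progenitors that carry neither CD4 nor CD8 (double negative) rearrange the receptor beta chain, pair it with the pre-T alpha chain, divide, and become CD4 CD8 double positive cells, which rearrange the alpha chain and are then selected into CD4 or CD8 single positive cells. Dntt encodes terminal deoxynucleotidyl transferase, which adds untemplated bases at V(D)J junctions; Rag2 encodes a subunit of the recombinase that cuts those junctions; and Ptcra encodes the pre-T alpha chain. Such genes are normally silent in mature T cells of peripheral tissue.

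Dntt, Rag2 and Ptcra are the members most tied to immature lymphocytes, so their promoters are printed here, from 250 bases before to 50 after the RefSeq start (GRCm38.p6, the mm10 assembly). Capitals mark E-boxes, CANNTG, the letters bound by E proteins, which are central to early lymphocyte development. Dntt lies on chromosome 19 (chr19:41029025-41029324, plus strand), Rag2 on chromosome 2 (chr2:101624462-101624761, plus strand) and Ptcra on chromosome 17 (chr17:46763663-46763962, minus strand, shown as transcribed).
Dntt promoter: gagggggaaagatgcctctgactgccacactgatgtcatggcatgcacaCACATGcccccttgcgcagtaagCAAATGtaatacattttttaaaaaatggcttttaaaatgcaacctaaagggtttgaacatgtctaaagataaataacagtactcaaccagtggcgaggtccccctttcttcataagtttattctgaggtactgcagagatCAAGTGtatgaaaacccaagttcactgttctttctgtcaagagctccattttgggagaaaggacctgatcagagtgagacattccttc
Rag2 promoter: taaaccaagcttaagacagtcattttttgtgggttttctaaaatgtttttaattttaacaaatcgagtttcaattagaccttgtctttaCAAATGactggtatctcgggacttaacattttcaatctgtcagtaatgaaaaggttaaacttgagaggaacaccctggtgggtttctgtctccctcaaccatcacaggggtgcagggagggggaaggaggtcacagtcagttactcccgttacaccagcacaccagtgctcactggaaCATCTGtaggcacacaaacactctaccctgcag
Ptcra promoter: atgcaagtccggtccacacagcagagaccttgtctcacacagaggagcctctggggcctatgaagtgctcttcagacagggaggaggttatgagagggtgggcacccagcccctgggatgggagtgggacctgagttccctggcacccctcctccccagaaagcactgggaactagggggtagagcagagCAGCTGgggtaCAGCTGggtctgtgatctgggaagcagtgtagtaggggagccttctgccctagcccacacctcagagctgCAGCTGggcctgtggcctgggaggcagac
The windows held 3, 2 and 3 E-boxes, and 72.3% of 32851 RefSeq promoter windows of the same length held at least 1. All 3 in Ptcra had the form CAGCTG, which is among the forms of CANNTG, occurred in 16.3% of windows, and occurred 3 or more times in 68 of them (0.207%, a share computed after the matches were seen). The Dntt window also held 1 GATA motif, AGATAA, present in 11.2% of windows. No CAGGTG (20.2% of windows), CTTTGA (16.0%) or CTTTGT (18.7%) for TCF/LEF factors, or TGTGGT (16.8%) for RUNX factors was found in these 3 windows on either strand. A match describes letters only.

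Among the recombination genes, Dntt was the most widely detected. It had a UMI in 32 of 107 GFPhi T cells, or 29.9% (21.4 to 39.5), and in 202 of 650 GFPlo T cells, or 31.1% (27.5 to 34.8). Among cells with none of the 5 gate genes, which served as the comparison, the shares were 0.121% and 0.306%. Those cells were deeper, with medians of 6889 and 7756 UMIs against 1946 and 3776.5 in T cells. They are whole cells of other types, so their counts can hold their own transcripts as well as free RNA. T cells held 80.7% of the Dntt UMIs of all kept cells in GFPhi and 95.2% in GFPlo. A Dntt-positive cell had a median of 2 Dntt UMIs in GFPhi and 3 in GFPlo, with up to 16 and 14. After each cell was thinned to 1000 UMIs, the shares were 18.6% (11.6 to 27.6) and 13.7% (11.1 to 16.7), with intervals that overlap.

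Rag2 was rare, and all of its UMIs in kept cells were in T cells. It had 4 UMIs in 4 GFPhi T cells, or 5.74 CPM (UMIs summed over the T cells of a library and scaled to their total; 1.56 to 14.7), and 24 UMIs in 21 GFPlo T cells, or 5.72 CPM (3.66 to 8.51), and none in the 9884 and 10783 cells with no gate gene. Its partner Rag1, which is no member and lies next to it on chromosome 2 (chr2:101638282-101649501, minus strand, against chr2:101624718-101632529, plus strand, for Rag2), was at 0 in every deposited barcode of both libraries. A 0 in every barcode can come from the counting or the annotation as well as from the cells, which was not tested, so no level or limit is given for Rag1. Ptcra was found in 9.35% of GFPhi T cells (10 cells) and 9.38% of GFPlo T cells (61 cells), at 18.7 CPM (9.93 to 31.9) and 20.5 CPM (16.4 to 25.3). T cells held 50.0% of Ptcra UMIs in GFPhi and 81.9% in GFPlo.

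Arpp21 and Themis come next. Arpp21 encodes a phosphoprotein abundant in immature thymocytes and striatal neurons, and Themis encodes a signalling adaptor needed for positive selection that mature T cells keep. Arpp21 was detected in 45.8% of GFPhi (311 CPM) and 37.1% of GFPlo T cells (277 CPM), and in 0.0304% and 0.148% of cells with no gate gene. Themis was detected in 72.0% and 55.5%, at 337 and 254 CPM. Lef1 and Tcf7 encode HMG-box transcription factors of T cell specification that naive T cells also express. Lef1 was found in 63.6% and 40.5% of T cells (372 and 216 CPM), and Tcf7 in 66.4% and 51.1% (362 and 295 CPM).

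The coreceptor genes follow. Cd8b1, the beta chain of CD8, had a UMI in 54.2% of GFPhi and 36.6% of GFPlo T cells, at 250 CPM (214 to 290) and 175 CPM (163 to 189). Cd8a, its alpha chain, had one in 38.3% and 28.9%, at 113 CPM (89.7 to 141) and 105 CPM (95.5 to 115). Cd4 was in 40.2% (30.8 to 50.1) of GFPhi but 15.5% (12.8 to 18.6) of GFPlo T cells, at 93.3 CPM (72.0 to 119) and 37.2 CPM (31.6 to 43.5). Cd4 was also the member most often found in GFPhi cells with no gate gene, in 3.54% of them, against 0.352% in GFPlo. Such cells include macrophages, so this share is not a measure of free RNA alone.

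**Figure D1:**
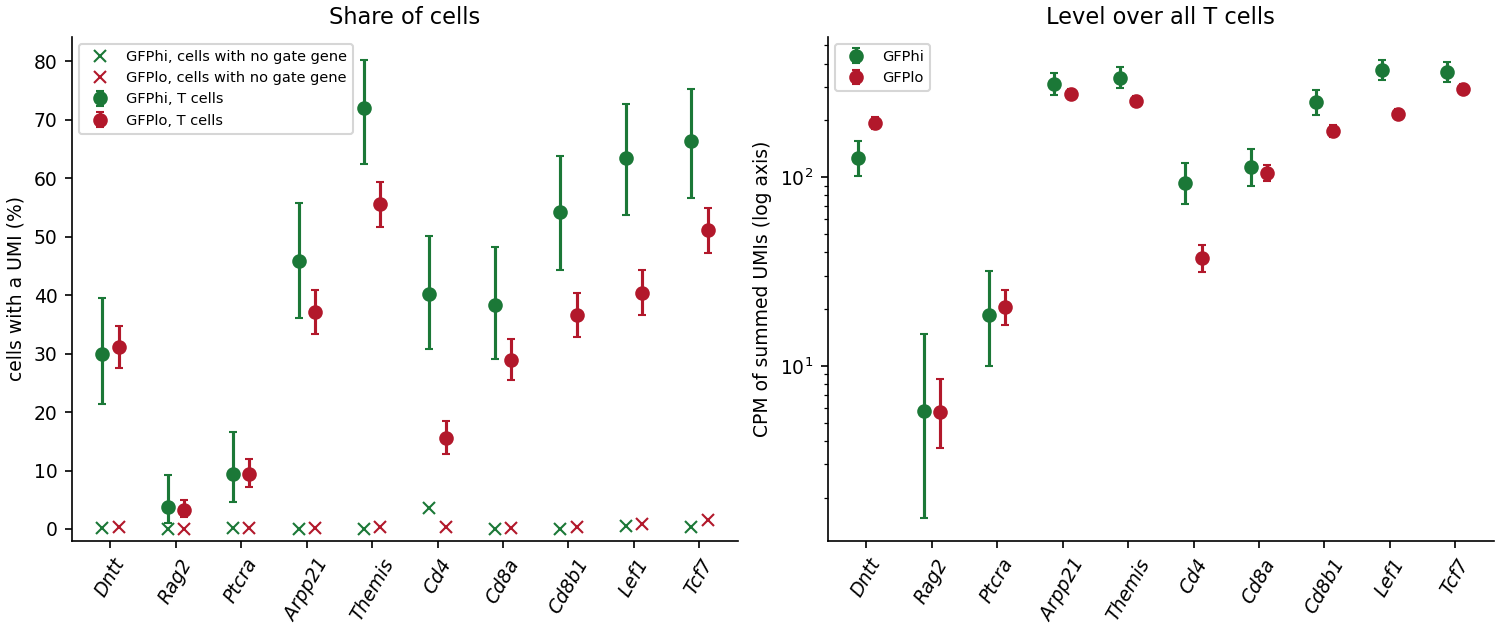
Detection and level of the 10 members in T cells of each library. Left, share of T cells with at least 1 UMI (points, exact 95% intervals) and of cells with none of the gate genes (crosses), in percent; right, CPM of UMIs summed over T cells on a log axis with exact Poisson 95% intervals. Crosses stay at or below 3.54% while T cells range from 3.23% for Rag2 in GFPlo to 72.0% for Themis in GFPhi.

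Over summed UMIs, 1 of 10 members, Cd4, was more than 2-fold apart between the fractions, higher in GFPhi at a ratio of 2.51 (1.85 to 3.37). Of 11202 genes with at least 20 UMIs, 4.9% were more than 2-fold higher in GFPhi and 8.58% more than 2-fold lower, so 1 of 10 is near the background. The median log2 ratio of the members was 0.23, against -0.08 over all genes tested. Lef1 had a ratio of 1.72 (1.49 to 1.98), Cd8b1 1.42 (1.20 to 1.68), Themis 1.33 (1.15 to 1.53) and Tcf7 1.23 (1.07 to 1.40). Dntt was lower in GFPhi, with a ratio of 0.652 (0.517 to 0.813), while the intervals of Rag2, Ptcra, Arpp21 and Cd8a included 1. These sums lean on a few deep cells. GFPhi T cells ran from 633 to 54279 UMIs, and without the T cells above 3 times their library's median, a choice made after seeing the data that left 82 and 526 cells, 5 members were past 2-fold: Cd4 at a log2 ratio of 2.30, Lef1 at 2.01, Themis at 1.49, Tcf7 at 1.33 and Cd8b1 at 1.31. With each cell weighted equally the Dntt difference turned from -0.61 to 0.03 on the log2 scale. The directions also rest on the gate. With at least 1 of the 5 gate genes, which took in 241 and 1176 cells, 9 of 10 members were lower in GFPhi: Lef1 at a log2 ratio of -0.36, Cd8b1 at -0.64, Themis at -0.74, Tcf7 at -0.86, Arpp21 at -1.01, Cd8a at -1.04, Rag2 at -1.01, Ptcra at -1.25 and Dntt at -1.77. Cd4 alone stayed higher there, at 0.29.

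Transcripts of other cell types moved with the fraction. All 8 of 8 macrophage markers were more than 2-fold higher in GFPhi T cells, with a summed 2634 CPM (2515 to 2757) against 68.6 CPM (60.9 to 77.0), and C1qa, a complement chain of macrophages, had a UMI in 43.9% of GFPhi and 0.308% of GFPlo T cells. Col1a1, the collagen of fibroblasts, was detected in fewer GFPhi than GFPlo T cells, 24.3% and 67.8%, but the 5 fibroblast markers summed to 6862 and 6238 CPM and none was more than 2-fold apart. Macrophages can express Cd4, and in GFPhi cells with no gate gene there were 2.10 Cd4 UMIs per 1000 C1qa UMIs. Over all GFPhi T cells there were 231. Cells of more than 1 type in a droplet were not removed, and their part in these results was not tested.

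Co-detection of Cd4 with a CD8 gene (Cd8a or Cd8b1) differed between the fractions. Double positives were 32 of 107 GFPhi T cells, or 29.9% (21.4 to 39.5), and 58 of 650 GFPlo T cells, or 8.92% (6.85 to 11.4). CD8 single positives were 28.0% and 32.9%, CD4 single positives 10.3% and 6.62%, and cells with neither 31.8% and 51.5%. The intervals of the double positive and the double negative shares do not overlap between the libraries, and those of both single positive shares do. A class here means transcripts found, so a cell that expresses a coreceptor weakly can fall among the double negatives.

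Double positives were not the deepest class. Their median was 1601.5 UMIs in GFPhi and 2878.5 in GFPlo, against 2939 and 3925 in double negatives. Among T cells of 500 to 2000 UMIs, double positives were 41.8% (28.7 to 55.9) in GFPhi and 19.7% (13.5 to 27.2) in GFPlo; from 2000 to 5000 UMIs they were 14.8% (4.19 to 33.7) against 10 of 238 cells (2.03% to 7.59%), and from 5000 UMIs 5 of 25 cells (6.83% to 40.7%) and 7.41% (4.58 to 11.2). The GFPhi share was the higher in each range, with intervals that overlap in the deeper 2. Thinned to 1000 UMIs per cell, which left out 5 and 46 shallower cells, the shares were 18.6% (11.6 to 27.6) and 2.48% (1.40 to 4.06). Most double positives rested on few Cd4 molecules: 12 of 32 in GFPhi and 22 of 58 in GFPlo had at least 2 Cd4 UMIs, with at most 4 and 5 in a cell. The CD8 genes gave a median of 3.5 and 3 UMIs per double positive cell, and both CD8 chains were seen in 18 and 26 of them. At least 3 of the 8 macrophage markers were present in 13 of the 32 GFPhi double positives and in 0 of the 58 of GFPlo. In GFPhi, such cells were also 9 of 11 CD4 single positives, 14 of 30 CD8 single positives and 17 of 34 double negatives. Macrophage markers do not measure RNA of other cell types. At least 3 of the 5 fibroblast markers were present in 11 of 107 GFPhi and 202 of 650 GFPlo T cells, a count not made by class. The part of macrophage or fibroblast RNA in these classes was not tested.

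**Figure D2:**
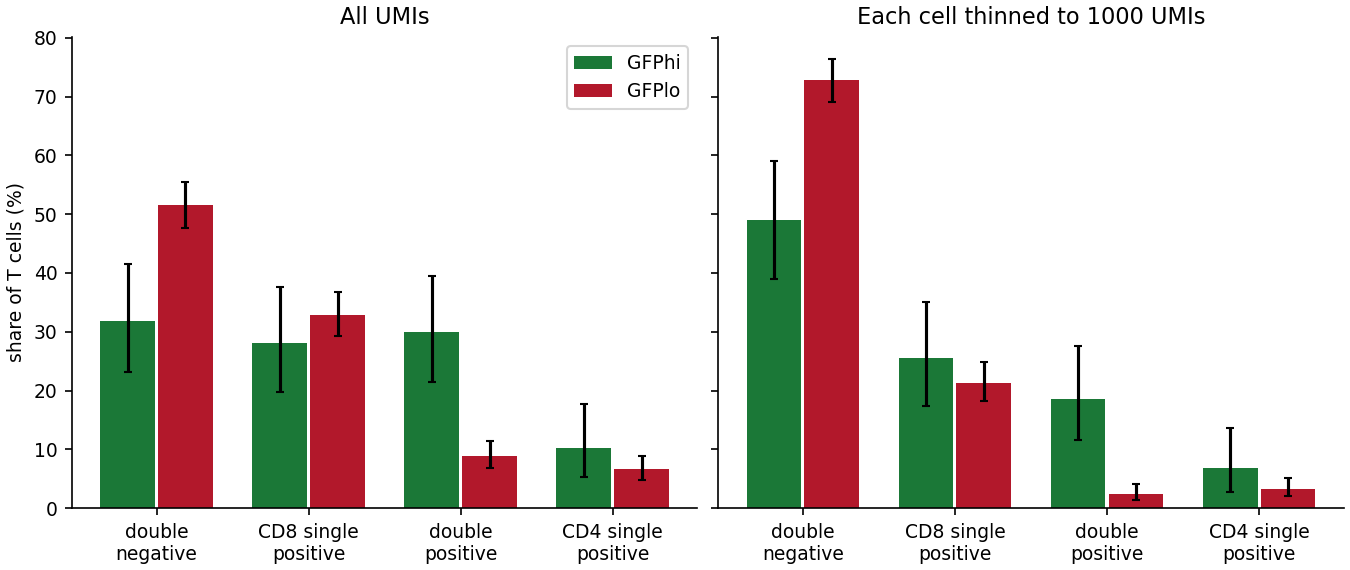
Share of T cells (percent) in each class of Cd4 and CD8 gene detection, by library, with exact 95% intervals. Left, all UMIs; right, each cell thinned to 1000 UMIs. The double positive bar of GFPhi stands above that of GFPlo in both panels, at 29.9% against 8.92% and at 18.6% against 2.48%.

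Cd4 was more frequent in T cells with a CD8 gene than in those without, although most cells with any coreceptor gene had only 1 kind, 41 of 73 in GFPhi and 257 of 315 in GFPlo. In GFPhi, Cd4 was detected in 51.6% (38.6 to 64.5) of T cells with a CD8 gene and in 24.4% (12.9 to 39.5) of those without. After thinning, these were 42.2% (27.7 to 57.9) and 12.3% (5.08 to 23.7) in GFPhi, and 10.4% (5.95 to 16.6) and 4.35% (2.68 to 6.64) in GFPlo. Mature T cells normally keep 1 of the coreceptors.

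Dntt was most frequent among double positives, in 56.3% (37.7 to 73.6) of them in GFPhi and 46.6% (33.3 to 60.1) in GFPlo, and rare among CD4 single positives, in 1 of 11 and 2 of 43 cells. It was present in 36.7% (19.9 to 56.1) and 29.0% (23.0 to 35.5) of CD8 single positives, with intervals that overlap those of the double positives. Depth was not matched between these classes. Among double negatives the fractions were apart: 2 of 34 GFPhi cells, or 5.88% (0.720 to 19.7), and 111 of 335 GFPlo cells, or 33.1% (28.1 to 38.5), had Dntt. This GFPlo interval overlaps that of the GFPlo double positives. Of the Dntt-positive cells, 56.3% in GFPhi were double positive and 34.4% CD8 single positive, while in GFPlo 55.0% were double negative, 30.7% CD8 single positive and 13.4% double positive. Dntt-positive cells were shallower in GFPhi, where the double positive share was higher: they had a median of 1718 UMIs in GFPhi (1006 to 54237) and 6756 in GFPlo (547 to 33728).

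**Figure D3:**
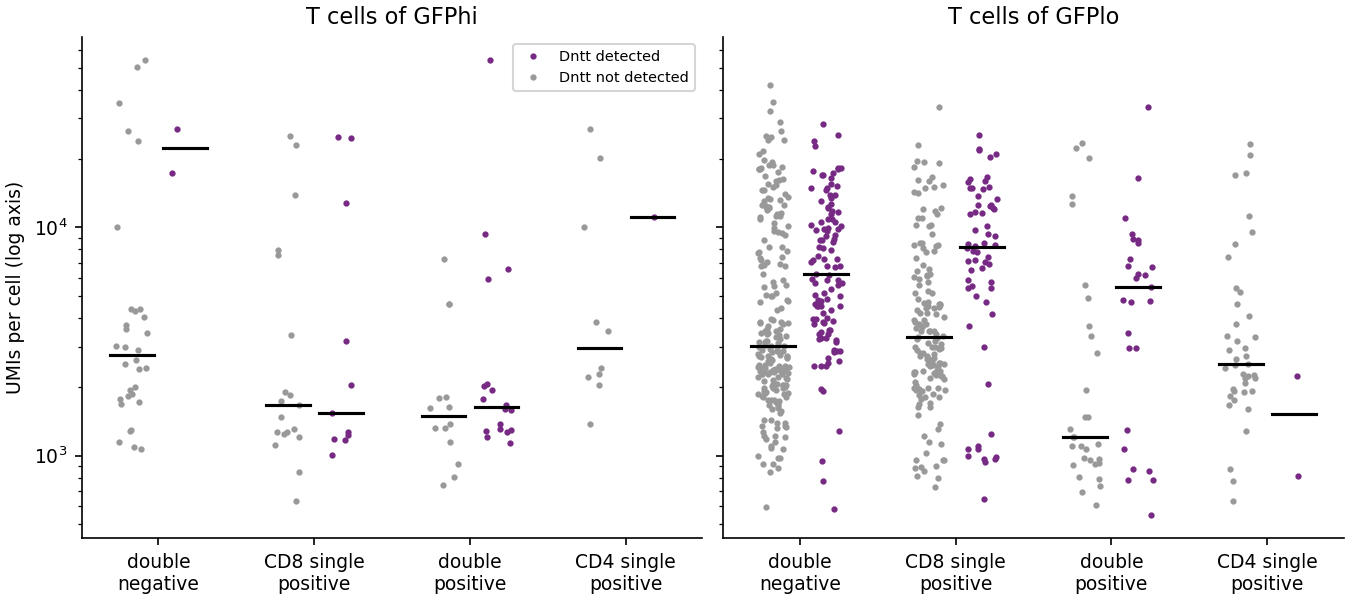
UMIs per T cell (log axis) by class of Cd4 and CD8 detection, for cells with Dntt (purple) and without (grey), in each library; each point is a cell and black lines are medians. Dntt-positive cells of GFPlo sit at a median of 6756 UMIs and those of GFPhi at 1718, and double positives are not the deepest class in either.

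Cells with Dntt carried the other immature genes. In GFPlo, 193 of 202 Dntt-positive cells had Arpp21 (95.5%), against 48 of 448 without Dntt (10.7%), and Ptcra was in 28.7% against 0.670%, Rag2 in 9.41% against 0.446%. In GFPhi, Arpp21 was in 90.6% against 26.7%, Ptcra in 8 of 32 cells against 2 of 75 and Rag2 in 12.5% against 0 of 75. Tcf7 was more frequent with Dntt in both libraries, at 90.1% against 33.5% in GFPlo and 26 of 32 against 45 of 75 cells in GFPhi. In GFPhi the intervals overlap (63.6% to 92.8% against 48.0% to 71.1%). Lef1 was at 63.4% against 30.1% in GFPlo and at 59.4% against 65.3% in GFPhi. Dntt-positive cells of GFPlo were deeper than the rest (6756 against 2970 UMIs), and a deeper cell shows more of its genes. After thinning, Arpp21 still stood at 55.4% (44.1 to 66.3) against 10.9% (8.39 to 13.9) in GFPlo and at 73.7% (48.8 to 90.9) against 30.1% (20.5 to 41.2) in GFPhi. Thinned Tcf7 was at 44.6% (33.7 to 55.9) against 19.0% (15.7 to 22.6) in GFPlo. In GFPhi it was at 63.2% (38.4 to 83.7) against 42.2% (31.4 to 53.5). Thinned Lef1 was at 24.1% (15.4 to 34.7) against 16.9% (13.8 to 20.4) in GFPlo and at 42.1% against 44.6% in GFPhi. Ptcra and Rag2 were too sparse for this check: thinned, Ptcra was in 5 of 83 (1.98% to 13.5%) against 10 of 521 cells (0.924% to 3.50%) in GFPlo and in 0 of 19 against 1 of 83 in GFPhi, and Rag2 in 1 of 83 against 3 of 521 in GFPlo and in 0 cells of GFPhi.

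CPM, which scales to the UMIs of each group of cells, gave the same order. In GFPlo, Dntt-positive over Dntt-negative T cells, Ptcra was at 48.9 against 2.34 CPM, a ratio of 20.9 (9.17 to 58.5). Rag2 was at 13.4 against 0.781 CPM, 17.2-fold (4.23 to 151) with 2 UMIs in the lower group, and Arpp21 at 630 against 50.8 CPM, 12.4-fold (10.3 to 15.0). Tcf7 was 5.25-fold higher (4.60 to 6.02), Lef1 2.66-fold (2.32 to 3.05) and Themis 2.53-fold (2.24 to 2.88). The coreceptors did not follow: the ratios were 0.738 (0.516 to 1.04) for Cd4, 1.02 (0.837 to 1.24) for Cd8a and 0.809 (0.692 to 0.945) for Cd8b1. Beside Dntt, which splits the cells, 6 members were thus past 2-fold, where 12.2% of 10823 genes were higher and 21.9% lower by that much. In GFPhi, where Rag2 and Ptcra had too few UMIs to be counted, 4 members beside Dntt were more than 2-fold higher, Arpp21 (5.27; 3.90 to 7.21), Cd8b1 (2.66; 1.95 to 3.64), Tcf7 (2.54; 1.96 to 3.28) and Cd8a (2.22; 1.40 to 3.55), against 10.8% higher and 15.3% lower of 4798 genes. Cd4, at 141 against 70.3 CPM (interval of the ratio 1.19 to 3.36), lay at 2-fold and passed it only through the prior count. The 32 GFPhi cells with Dntt ran from 1006 to 54237 UMIs, with a median of 1718. The 75 without ran from 633 to 54279, with a median of 2040. Sums over these GFPhi cells, here and below, therefore lean on a few deep cells. Within Dntt-positive cells, GFPhi exceeded GFPlo more than 2-fold in Cd4 (4.60; 2.86 to 7.32) and Cd8b1 (2.81; 2.20 to 3.56), 2 of 10 members where 6.74% of 7926 genes were higher and 12.9% lower; Dntt, Arpp21, Themis, Lef1, Tcf7, Ptcra, Rag2 and Cd8a were within 2-fold.

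Of the other thymocyte genes, a list of 27 without the 10 members, 24 were measured in GFPlo, and 14 were more than 2-fold higher with Dntt and 2 lower. The median log2 ratio was 1.29, against -0.02 for all genes. Higher were Ly6d, a surface antigen of early lymphoid cells (1060 against 45.3 CPM, ratio 23.4), Cd24a, the heat stable antigen of immature thymocytes (258 against 12.9 CPM), Myb, a progenitor transcription factor (15.3), Notch1, the receptor that commits progenitors to the T lineage (4.26), and Il2ra, the interleukin 2 receptor alpha chain (3.55). Runx3, a factor of CD8 cells and cytotoxic cells (0.344), and Id3, an inhibitor of E proteins (0.346), were lower. GFPhi showed less of this: of 19 genes measured, 5 were higher with Dntt (Ly6d at 5.66-fold, Myb, Tcf3, Tcf12 and Notch1, whose interval, 0.847 to 5.02, includes 1) and 4 lower (Tox, Runx3, Id3 and Hes1), with a median log2 ratio of 0.40 against 0.06 for all genes, and Il2ra was at 39.5 against 36.2 CPM. Whether the libraries differ in this was not tested. All 8 of 8 cycling genes were more than 2-fold higher with Dntt in both libraries, Mki67 at 2.92-fold in GFPlo and 2.52-fold in GFPhi. In GFPlo, 7 of 8 genes of mature and recirculating T cells were lower, among them Cd52 (66.0 against 1762 CPM) and Ms4a4b (15.3 against 554 CPM). Of 9 effector genes 8 were lower, among them the chemokine Ccl5 at 5.50 against 996 CPM. The exception was Gzma, a granule gene, at 209 against 126 CPM, a ratio of 1.66 (1.42 to 1.94). In GFPhi, Ccl5 and the granule gene Nkg7 had 0 UMIs in the 32 Dntt-positive cells, against 167 and 98 UMIs in the others. There, 4 of 5 measured effector genes were lower and Gzma was again higher, with 36 against 10 UMIs, a ratio of 7.42 (3.61 to 16.8).

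Split further by class, the Dntt-positive cells of GFPlo showed 3 profiles. In the 111 double negatives Il2ra was detected in 60.4%, Notch1 in 73.9%, the gamma chain constant gene Tcrg-C1 in 69.4%, Trdc of the delta chain in 61.3%, and Trac in 4.50%. Arpp21 was in 97.3% of them, Ptcra in 27.9% and Mki67 in 38.7%. In the 62 CD8 single positives Il2ra was in 1.61%, Trac in 51.6%, Ptcra in 33.9%, Rag2 in 17.7% and Mki67 in 80.6%. In the 27 double positives Il2ra was in 0 cells, Notch1 in 29.6%, Trac in 48.1% and Mki67 in 70.4%. Il2ra marks double negative thymocytes around beta chain rearrangement, and CD8 appears before CD4 in an immature dividing intermediate.

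T cells without Dntt looked different. The 152 Dntt-negative CD8 single positives of GFPlo had Nkg7 in 82.2%, Ccl5 in 70.4% and Ms4a4b in 83.6%, against 4.84%, 3.23% and 4.84% of the Dntt-positive ones, with Arpp21 in 9.21% against 91.9%. The 31 Dntt-negative double positives were set apart from other Dntt-negative cells by Arpp21, in 67.7%, with Nkg7 in 3.23% and Foxp3, the regulatory T cell factor, in 12.9%. They were shallow, with a median of 1200 UMIs. In GFPhi, Arpp21 was likewise in 78.6% of the 14 Dntt-negative double positives and in 9.38% of the 32 Dntt-negative double negatives. Of T cells with Arpp21 and no Dntt, 11 of 20 in GFPhi and 21 of 48 in GFPlo were double positive.

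**Figure D4:**
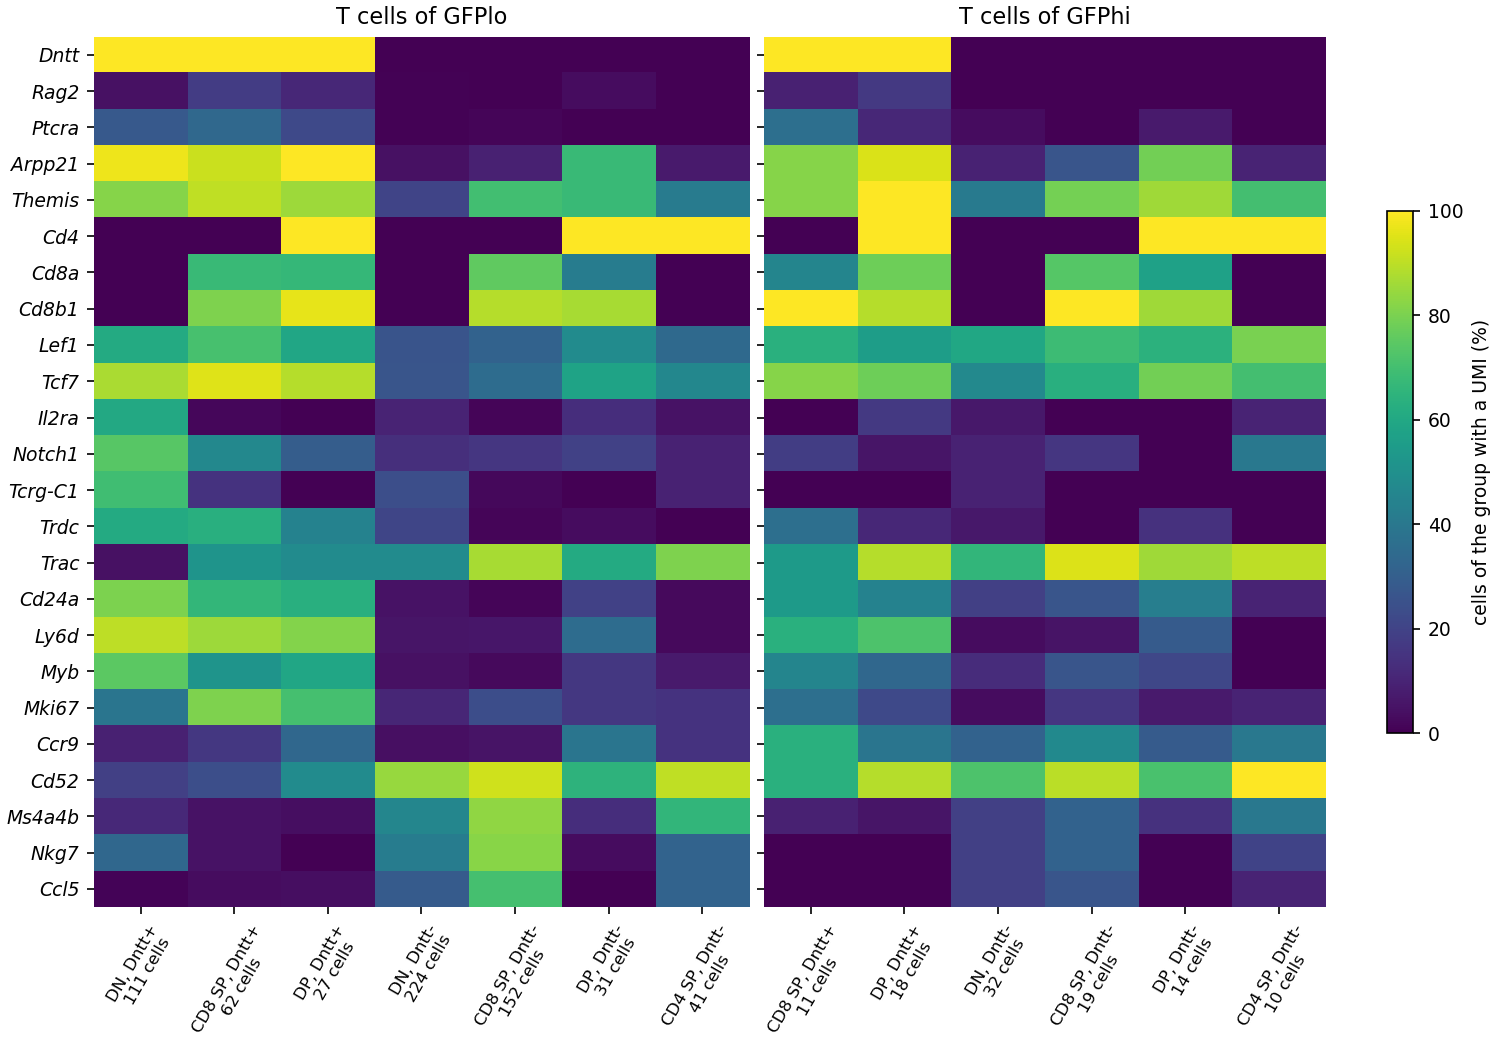
Share of cells with a UMI (percent, colour) of the 10 members and 14 other genes, in T cells grouped by Cd4 and CD8 detection (DN, double negative; DP, double positive; SP, single positive) and by Dntt, for groups of at least 10 cells. Arpp21 and Ly6d are high in the Dntt-positive columns, Il2ra and Tcrg-C1 in the Dntt-positive double negatives of GFPlo (60.4% and 69.4%), and Nkg7 and Ccl5 in the Dntt-negative CD8 single positives of GFPlo (82.2% and 70.4%).

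Between the double positives of the fractions, none of the 8 members with enough UMIs was more than 2-fold apart, where 7.21% of 3399 genes were higher and 14.5% lower in GFPhi: Dntt was at 272 and 369 CPM (ratio 0.737; 0.490 to 1.09), Arpp21 at 965 and 579 CPM (1.67; 1.31 to 2.11), Themis at 879 and 553 CPM (1.59; 1.24 to 2.03), Cd8a at 397 and 255 CPM (1.56; 1.07 to 2.24), Tcf7 at 825 and 559 CPM (1.48; 1.15 to 1.89) and Cd4 at 381 and 307 CPM (1.24; 0.860 to 1.77). Of 8 cycling genes 5 were more than 2-fold lower in GFPhi. Of 16 other thymocyte genes measured, 4 were more than 2-fold lower: Notch1, Id3, and Il2ra and Tcf3, whose intervals include 1. Only 1 was higher, Ccr9, a chemokine receptor of thymocytes, at 2.56-fold (1.46 to 4.49). The list's median log2 ratio was 0.06, against -0.08 for all genes. All 4 measured macrophage and all 3 measured mesothelial markers were more than 2-fold higher in GFPhi, and all 4 measured fibroblast markers were lower. Ccr9 is also expressed by plasmacytoid dendritic cells, whose marker Siglech was in 0 GFPhi and 2 GFPlo T cells. At least 3 of the 6 markers listed for these cells, which include Ccr9, were in 7 GFPhi and 31 GFPlo T cells. The source of Ccr9 was not tested. The deepest GFPhi double positive had 54237 UMIs, against a class median of 1601.5. The 18 GFPhi double positives with Dntt held 97561 UMIs together and the 14 without held 30930. The GFPhi levels and ratios of this comparison therefore lean on that cell, and the intervals do not cover this. No alternative with cells weighted equally was computed for the class.

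Over the 650 T cells of GFPlo, the genes whose level per cell went most closely with Dntt were, by Pearson correlation of log counts per 10000 over 9979 genes, Arpp21 (r = 0.709), Ly6d (0.663), Cd24a (0.624), Myl10 (0.592), Myb (0.554), Cux1 (0.492), Rgcc (0.489), Tcf7 (0.484), Cdca7 (0.475) and Cdk6 (0.473). In the 107 GFPhi T cells the same pairs gave 0.533 for Arpp21, 0.566 for Ly6d, 0.154 for Cd24a and 0.0212 for Cdk6. For Ptcra the nearest in GFPlo were Dntt (0.408), Myl10 (0.387), Notch1 (0.377) and Ly6d (0.374), and for Rag2, seen in 21 cells, no value exceeded 0.331 (Fbxl12). In GFPhi the same Ptcra pairs gave 0.119, 0.439, 0.181 and 0.369, and Rag2 with Fbxl12 gave -0.0553. Those GFPhi values rest on 10 T cells with Ptcra and 4 with Rag2. The cells of a library share its free RNA and their depth enters every pair.

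Outside the gate Dntt was found in 12 cells of GFPhi and 34 of GFPlo, with medians of 14144 and 8395 UMIs. Of these cells, 7 and 12 had Siglech, 11 and 2 had Lyz2, 9 and 30 had Col1a1, and 2 and 19 had Ebf1, a B cell factor that stromal cells also express. Among 7037 GFPlo cells with fibroblast markers, 16 had Dntt (0.227%). Among 18 GFPlo cells with the markers of plasmacytoid dendritic cells, 4 had Dntt (22.2%), 6 Cd8b1 (33.3%) and 2 Cd4 (11.1%), while Arpp21, Ptcra and Rag2 were at 0. Among 23 GFPlo cells with natural killer markers, 6 had Tcf7 and 5 Lef1. In 5762 GFPhi cells with macrophage markers Cd4 was in 3.37% (2.92 to 3.87), Dntt in 1 cell and Cd8a in 1 cell. Of 5 genes of thymic epithelium, 2 were detected in GFPhi and 4 in GFPlo T cells, at a summed 11.5 and 20.3 CPM against 5.36 and 8.76 CPM over all kept cells. Within T cells, Ccl25 had 4 UMIs in GFPhi and 46 in GFPlo, and Epcam 4 and 37. Foxn1 and Psmb11 had 0 UMIs in GFPhi and 1 each in GFPlo, and Prss16 had 0 in both. Over all kept cells, Ccl25 had the most of the 5, with 414 UMIs in GFPhi and 757 in GFPlo. There, Prss16 had 37 UMIs in GFPhi and 35 in GFPlo, Psmb11 3 in each, and Foxn1 0 and 4. Whether thymic tissue was present was not tested. Epcam was in 11.9% of the Dntt-positive T cells of GFPlo and 4.92% of all its T cells. In GFPhi these shares were 3.13% and 2.80%. The Dntt-positive T cells of GFPlo were deeper than the rest, with a median of 6756 against 2970 UMIs.

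The reporter feature mGFP was detected in 15 of 107 (8.06% to 22.1%) GFPhi T cells and in 11.7% (9.32 to 14.4) of those of GFPlo, against 21.5% and 16.2% of all kept cells. Among Dntt-positive T cells it was in 3 of 32 in GFPhi and in 42 of 202, or 20.8%, in GFPlo. The sources used here do not say which stretch of the reporter this feature counts.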

How the data were processed

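Single-cell 3′ RNA libraries were sequenced from a GFPhi and a GFPlo fraction, 1 library each. The values are raw UMI counts per gene and barcode, as deposited by the authors (10430 and 12344 barcodes, 91343549 and 104855204 UMIs), aligned to mm10 per the submitters' processing notes; the sources used here do not give the aligner, counter or cell calling. Per the labels, a SeekOne droplet kit was used, while another field names 10x Genomics. Cells were filtered and T cells gated as stated above. No doublets were removed and no caller was run. Of the kept barcodes, 92 occur in both libraries, 5 of them T cells in GFPlo and 0 in GFPhi. With 1 library per group, no test was run. Shares have Clopper-Pearson, CPM Poisson and ratios exact conditional intervals, at 95%; PCR and cell sampling are not covered. Genes entered a ratio comparison with at least 20 UMIs over both groups, counts used a prior of 0.5, and called means past 2-fold. Thinning drew 1000 UMIs per cell without replacement. The interval code was tested on simulated data. All 10 members and the gate genes are named, with genes of the lists that belong to thymocyte development or lie at the extremes of a list, and the 10 genes most correlated with Dntt, Rag2 and Ptcra; Foxp3, Siglech, Trac, Trdc and others named for a profile were picked once their values were known. The members and lists were chosen with earlier results of these data known. Gene positions came from GENCODE vM21 and promoters from RefSeq (8 of 10 members matched). Alternatives changed the gate, the detection minimum, the depth, the scaling and the cells kept. Python 3.11.15, numpy 2.4.6, scipy 1.17.1 and pandas 2.3.3 were used. Some genes of the lists are not reported here.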

Additional observations from a re-analysis of the deposited data

How the results depend on the processing

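No paired analysis was possible because each group is 1 library and no test was run. Of 50 shares recomputed, 31 stayed within the interval of the reported value and 19 moved. With at least 1 of the 5 gate genes, T cells were 2.38% and 9.83% of kept cells in GFPhi and GFPlo, double positives 13.3% and 5.02%, and Dntt-positive cells 13.3% and 17.3%. With at least 3 gate genes the GFPlo T cell share was 4.67%. Leaving out T cells with markers of other cell types kept 19 and 263 cells, 0.188% and 2.20% of kept cells, with double positives at 26.3% and 11%. With at least 2 UMIs of a gene, double positives were 8.41% and 2.46% and Dntt-positive cells 15.9% and 24.2%. With Cd8a alone, double positives were 20.6% and 4.77%. Thinning gave 18.6% and 2.48% for double positives and 18.6% and 13.7% for Dntt. The double positive share was higher in GFPhi under each of these alternatives. With T cells bearing other markers left out, that share rests on 19 GFPhi cells, too few for a narrow interval.

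Between the fractions, 549 genes were more than 2-fold higher and 961 lower in GFPhi. The higher count was 1062 with cells weighted equally, 1454 with a lower count minimum, 1335 without T cells bearing other markers and 1118 without deep T cells; the lower count was 2469 with cells weighted equally. Members past 2-fold numbered 1 in the reported comparison, 5 with cells weighted equally, 5 with at least 1 gate gene (all lower in GFPhi, with 7 of 10 members turned from higher to lower), 2 with at least 3, 8 without T cells bearing other markers and 5 without deep T cells. Of 90 member ratios, 68 kept their side of 2-fold, 21 passed it in either direction, and 1, Cd4 with at least 1 gate gene (log2 0.29), no longer did; the cause was not tested. Depth limits Rag2 and Ptcra most, with 4 and 13 UMIs in GFPhi T cells.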
